A study of Mus musculus with 12 samples.

Results

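The genes followed here belong to the pathway that cuts antigens into peptides and loads them on MHC class I molecules, measured in a mouse pancreatic cancer line and the tumours it formed. The 8 genes are those of the listed symbols among the 750 genes of the deposited log2 table: the peptide transporter genes Tap1 and Tap2, the tapasin gene Tapbp, the proteasome subunit genes Psmb7, Psmb8, Psmb9 and Psmb10, and the transactivator gene Nlrc5. All 8 were found. No filter on low values was applied, so all 8 entered every test.

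The line, mT3-2D, comes from a pancreatic tumour of the KPC mouse model. It was measured in culture (2 samples) and as subcutaneous tumours, 5 from wild-type (WT), immunocompetent hosts and 5 from SCID hosts, which have no mature T or B cells but keep NK and myeloid cells. No treatment is named in the labels, and the sources used here do not give host strain, age or time after injection. The line is 1 line, so the tumours of both hosts share its cells. Whole tumours were measured, so fewer cells of a type and less RNA per cell cannot be told apart.

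Cells cut their own proteins with the proteasome, a barrel whose cutting subunits exist in a constitutive and an inducible form. Interferon-gamma leads cells to replace the constitutive subunits with the inducible ones, which makes the immunoproteasome. The peptides are pumped into the endoplasmic reticulum by the transporter TAP and handed to class I molecules by tapasin, where CD8 T cells can later read them at the surface. Leukocytes carry much of this machinery even without induction, whereas many carcinoma cells hold little of it until interferon reaches them. NLRC5 is the transcription factor partner that switches on class I genes and several of these processing genes.

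RNA was counted on a NanoString nCounter panel of mouse immune and cancer genes (PanCancer Immune), in which a barcoded probe pair binds each transcript and is counted without amplification. Levels below are log2 normalized counts as deposited, so a difference of 1 is a factor of 2, and differences are between group means on that log2 scale. Totals of 368925 to 558445 probe counts per sample were recovered from the deposited values. A background level of 29.5 counts was set from 33 lymphocyte (T and B cell) genes in the cultured line, which corresponds to log2 levels of 4.36 to 5.32 in the different samples. The counts of WT tumours 2 and 3 were nearly the same: chi-square divided by its degrees of freedom was 1.20, where the 19 remaining pairs within a host gave 17.1 to 84.5. The pair was averaged into 1 sample, so that n is 4 for WT hosts, 5 for SCID hosts and 2 for the line. Between the 2 line samples the same ratio was 1.64, and they were kept as 2. The labels do not say whether they were separate cultures, so p-values against the line may rest on a technical spread. The sample titles carry numbers whose meaning the labels do not give. WT tumours 3, 4 and 5 share 1 number, as do SCID tumours 1 and 2 and SCID tumours 3 and 4, while WT tumours 1 and 2 and SCID tumour 5 each have their own, so the averaged pair carries different numbers. Whether each tumour had its own animal is not stated, and the p-values reflect only the spread among these samples, which may be technical. Pan-leukocyte markers separated tumours from the line, with 19 of 19 called higher in tumours of each host. Of all genes 67.1% were called higher in WT tumours and 51.6% in SCID tumours than in the line. All 5 epithelial tumour cell markers were above background in every sample. Of 21 T cell markers, 0 were above background in all SCID tumours and 5 in all WT tumours.

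Of the 8 members, 7 fell in SCID tumours and 1 was not called. Nlrc5, Tap1, Tap2, Tapbp, Psmb8, Psmb9 and Psmb10 were each lower in every SCID tumour than in any WT tumour, by 1.36 (Tapbp) to 3.11 (Nlrc5) on the log2 scale. Psmb7, the constitutive subunit, had a mean of 10.28 in both hosts. Thus 7 of 8 members were called lower at a limma adjusted p under 0.05, 0 higher and 1 not called, with a median change of -2.12. Over all 750 genes 15.7% were called lower and 0.133% higher, and the median change was -0.33. Aligned on the median of all genes, 37 genes were called lower and 49 higher in place of 118 and 1, and the median change was 0.28. Without WT tumour 5, 67 genes were called lower. In 15.1% of all genes every SCID tumour lay below every WT tumour. The 7 calls held without any 1 tumour, with limma adjusted p between 3.63e-04 and 0.0265 over the 7 genes.

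**Figure D1:**
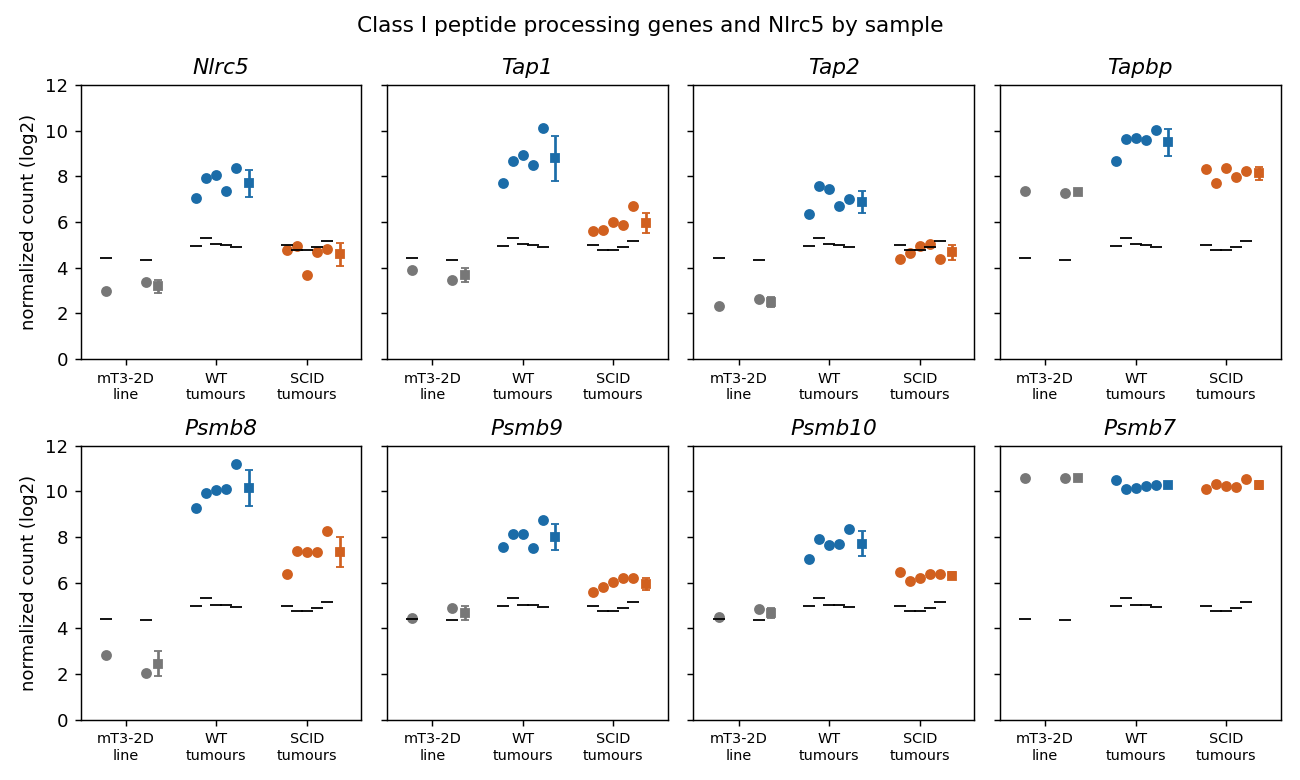
Log2 normalized count (y axis) of each member in the 2 line samples (grey), 5 WT tumours (blue) and 5 SCID tumours (orange). Circles are samples, squares and bars the mean ± SD with WT tumours 2 and 3 averaged, and black ticks the background level of each sample. In 7 panels the SCID tumours sit below all WT tumours, and in the Psmb7 panel the 2 hosts overlap at a mean of 10.28.

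The transactivator gene Nlrc5 was well above background in WT tumours and mostly below it in SCID tumours. Nlrc5 read 7.04, 7.93, 8.04, 7.36 and 8.37 in WT tumours 1 to 5. In SCID tumours 1 to 5 it read 4.76, 4.93, 3.69, 4.71 and 4.80, and in the line samples 2.98 and 3.38. The lowest WT tumour stood 2.11 above the highest SCID tumour, so the hosts did not overlap. Only 1 of 5 SCID tumours was above background, at 33 counts, and the line samples held 11 and 15 counts. From a WT mean of 7.69 ± 0.60 (SD, n = 4) to a SCID mean of 4.58 ± 0.50 (SD, n = 5), Nlrc5 fell by 3.11 (SE 0.33, limma adjusted p = 7.72e-04). With readings below background raised to it, the fall was by 2.74 (limma adjusted p = 3.13e-04), smaller than those of Tap1 and Psmb8, so its place as the largest fall as deposited rests on readings below background.

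Of the transporter, Tap1 encodes the chain that pairs with TAP2 to move peptides. In WT tumours 1 to 5 its level was 7.70, 8.68, 8.94, 8.51 and 10.10. The SCID tumours read 5.60, 5.64, 5.99, 5.86 and 6.69, and the line 3.91 and 3.47. Every tumour was above background and both line samples were below it, at 21 and 16 counts. Tap1 fell by 2.82 (SE 0.42, limma adjusted p = 0.00208) between WT and SCID tumours. The WT tumours were spread more widely, with an SD of 1.00 (n = 4) against 0.44 in SCID tumours (n = 5), and the gap between the hosts was 1.01.

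Tap2, the gene of the partner chain, was dimmer and less spread. It read 6.37, 7.60, 7.43, 6.69 and 6.99 in WT tumours 1 to 5. In SCID tumours it read 4.36, 4.64, 4.97, 5.05 and 4.37, with 2 of 5 tumours above background. The line held 7 and 9 counts, which is below the median of 16 counts that the T and B cell probes gave there. Tap2 fell by 2.21 (SE 0.26, limma adjusted p = 9.18e-04), from 6.89 ± 0.49 (SD, n = 4) to 4.68 ± 0.33 (SD, n = 5). With readings below background raised to it, the fall was by 1.90 (limma adjusted p = 6.01e-04). Unlike Tap1, it was highest in WT tumours 2 and 3 and not in WT tumour 5.

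Tapasin bridges the transporter and the class I molecule. Tapbp was above background in all 12 samples, at 8.67, 9.61, 9.66, 9.58 and 10.03 in WT tumours and 8.34, 7.71, 8.34, 7.98 and 8.24 in SCID tumours. It fell by 1.36 (SE 0.27, limma adjusted p = 0.00782), the smallest of the 7 falls, and the gap between the hosts was 0.32. With every sample aligned on its median over all genes the difference was -0.75 and not called (limma adjusted p = 0.0684).

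Psmb8, Psmb9 and Psmb10 encode the inducible cutting subunits, known as LMP7, LMP2 and MECL-1. Psmb8 read 9.26, 9.92, 10.07, 10.10 and 11.18 in WT tumours. In SCID tumours it read 6.40, 7.39, 7.33, 7.36 and 8.27, and in the line 2.84 and 2.06, which is 10 and 6 counts. The 3 groups did not overlap, and the SCID tumours lay between the other groups. Psmb8 fell by 2.79 (SE 0.42, limma adjusted p = 0.00208) in SCID against WT tumours.

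Psmb9 lies head to head with Tap1 in the genome. Its WT tumours read 7.54, 8.12, 8.14, 7.54 and 8.73, and its SCID tumours 5.60, 5.79, 6.01, 6.20 and 6.19. It fell by 2.03 (SE 0.26, limma adjusted p = 0.00114), with a gap of 1.34 between the hosts. Psmb10 read 7.04, 7.90, 7.67, 7.68 and 8.34 in WT tumours and 6.49, 6.08, 6.20, 6.40 and 6.37 in SCID tumours. It fell by 1.41 (SE 0.24, limma adjusted p = 0.00379), and its SCID tumours had the smallest SD, 0.16 (n = 5), of the tumour groups of the 7 genes that fell.

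Psmb7 encodes the constitutive subunit whose place in the barrel MECL-1, the product of Psmb10, takes over. It read 10.48, 10.10, 10.15, 10.24 and 10.29 in WT tumours and 10.11, 10.34, 10.23, 10.18 and 10.54 in SCID tumours. The hosts overlapped over nearly their whole ranges. The difference was -0.0025 (SE 0.15, limma adjusted p = 0.993), with a 95% interval from -0.34 to 0.34 on the log2 scale. Its sign depended on the scaling, from -0.0025 as deposited to 0.10 on widely expressed genes, 0.32 with TMM factors and 0.60 on the median of all genes. Psmd7, a subunit of the regulatory cap of the proteasome, differed by -0.13 (SE 0.14, limma adjusted p = 0.570).

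Measured against Psmb7 in the same sample, a difference that does not depend on how samples were scaled, all 7 other members were lower in SCID tumours. Of the 749 genes compared this way 15.4% were called lower and 0.134% higher. In WT tumours Psmb10 minus Psmb7 was -2.57 ± 0.63 (SD, n = 4). SCID tumours had -3.97 ± 0.27 (SD, n = 5), a fall of 1.40 (SE 0.29, limma adjusted p = 0.00779). Psmb8 minus Psmb7 fell by 2.78 (SE 0.39, limma adjusted p = 0.00126) and Nlrc5 minus Psmb7 by 3.11 (SE 0.34, limma adjusted p = 5.29e-04). Tapbp minus Psmb7 fell by 1.35 (SE 0.31, limma adjusted p = 0.0143), and without WT tumour 5 it was at -1.17 and not called (limma adjusted p = 0.0554). Such a within-sample difference shows unequal change, and not which of the 2 transcripts moved.

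Psmb9, Tap1, Psmb8 and Tap2 are neighbours in this order on mouse chromosome 17, with no other protein-coding gene of the RefSeq table between them. Tapbp lies elsewhere on chromosome 17, Nlrc5 and Psmb10 on chromosome 8, and Psmb7 on chromosome 2. The 7 genes that fell therefore lie on 2 chromosomes. Promoter sequences of 5 of the 8 members (Tap1, Psmb8, Psmb9, Psmb10 and Tapbp) were in the RefSeq table of build GRCm38.p6. The start sites of Psmb9 and Tap1 are 226 bases apart on opposite strands, and their windows share 225 bases. The Tap1 window is shown with the promoter of Psmb8, since Tap1 and Psmb8 had the largest falls among the members above background in every tumour. Each run is the 250 bases before the start site, 5′ to 3′ on the strand of the gene, and capitals mark motif matches.
Tap1, chr17:34187306-34187555, plus strand: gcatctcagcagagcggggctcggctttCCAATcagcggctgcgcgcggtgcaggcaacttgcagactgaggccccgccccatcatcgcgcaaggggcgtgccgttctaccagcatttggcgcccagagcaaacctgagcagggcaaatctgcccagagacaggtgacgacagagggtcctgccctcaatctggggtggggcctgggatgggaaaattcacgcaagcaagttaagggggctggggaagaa
Psmb8, chr17:34197945-34198194, plus strand: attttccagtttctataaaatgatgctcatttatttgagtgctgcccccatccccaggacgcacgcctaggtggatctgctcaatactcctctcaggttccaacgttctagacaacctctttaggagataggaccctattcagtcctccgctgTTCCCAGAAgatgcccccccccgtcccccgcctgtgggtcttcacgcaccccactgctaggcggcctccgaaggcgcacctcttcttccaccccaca

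Both strands of these windows were searched for 4 motifs: GAAA repeated after any 2 bases (interferon response element), TTCNNNGAA (gamma-activated site), GGG and TTTCC with any 2 bases between them (NF-kappaB) and CCAAT (Y box). The Psmb8 window holds 1 gamma-activated site match, TTCCCAGAA, at positions -97 to -89 from the start site. Such a match was in 7.02% of the 32851 windows of the table. CCAAT was in the windows of Tap1 (positions -222 to -218), Psmb9 and Tapbp, and in 33.8% of all windows. The match in the windows of Tap1 and Psmb9 is the same stretch read from both sides. The interferon response element and NF-kappaB letters, found in 2.98% and 1.41% of all windows, were in none of the 5. A match is a description of letters, not a measured binding site.

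Against the cultured line, the same 7 members rose in tumours of both hosts as deposited, although aligning samples on the median of all genes turned the sign for Tapbp in both hosts and for Psmb9, Psmb10 and Nlrc5 in SCID hosts. In WT tumours 7 of 8 members were called higher than in the line and 0 lower, with a median difference of 3.85. Of all 750 genes 67.1% were called higher and 2.67% lower, with a median of 1.21. In SCID tumours 7 of 8 were called higher and 0 lower, with a median of 1.51, against 51.6% of all genes higher, 2.8% lower and a median of 0.81. These comparisons share the line samples and are given side by side only. Every WT tumour lay above every line sample in 72.7% of genes, and every SCID tumour in 60.7%.

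**Figure D2:**
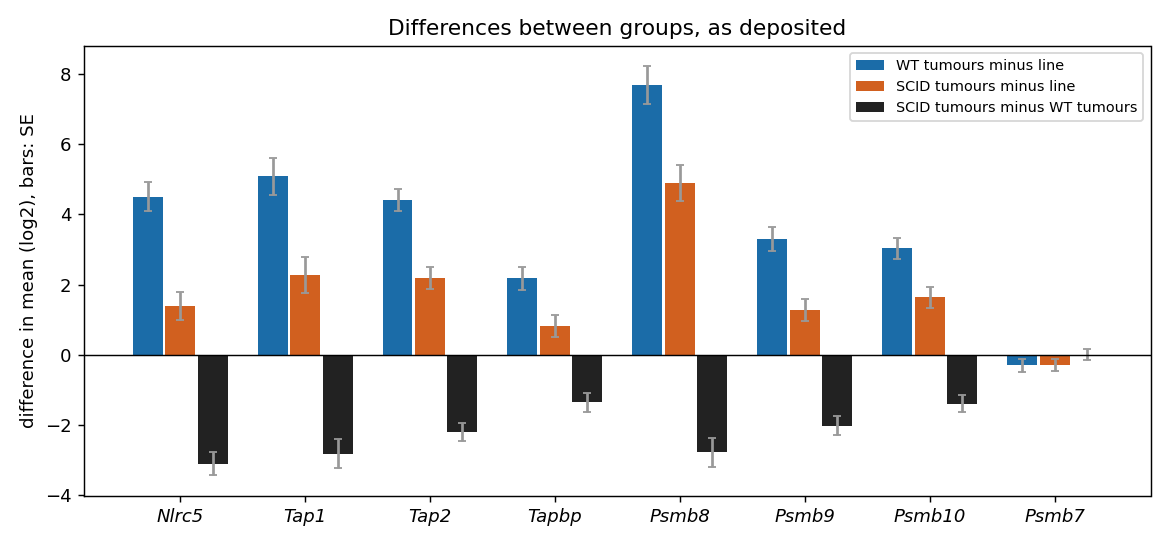
Difference between group means (log2, y axis) for each member, with bars for WT tumours minus the line, SCID tumours minus the line and SCID minus WT tumours, and SE as error bars. The tallest bar is that of Psmb8 in WT tumours minus the line (7.68), and the 3 bars of Psmb7 lie at -0.30, -0.30 and -0.0025. Line levels of Nlrc5, Tap1, Tap2 and Psmb8 were at background, so their bars against the line rest on probe background.

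The 4 members (Nlrc5, Tap1, Tap2 and Psmb8) that were at background in both line samples have folds given as lower bounds, from the background level of the line. These bounds hold only for the scaling as deposited. The p-values beside these bounds are those of the limma fit to the values as deposited. With readings below background raised to it, limma adjusted p in WT tumours against the line was 4.93e-06 for Psmb8 and 3.88e-05 for Tap1. Psmb8 was at least 54.0-fold higher in WT tumours (limma adjusted p = 3.57e-07) and at least 7.83-fold higher in SCID tumours (limma adjusted p = 1.32e-05). Tap1 was at least 21.1-fold higher in WT tumours (limma adjusted p = 7.34e-06) and at least 2.99-fold higher in SCID tumours (limma adjusted p = 0.00318). Aligned on the median of all genes, the log2 difference of WT tumours from the line was 5.08 for Psmb8 and 2.48 for Tap1, against 7.68 and 5.09 as deposited. For Tap1 in SCID tumours against the line it was as low as 0.26 under the alternative settings, against 2.26 as deposited. For Nlrc5 the bound was at least 9.91-fold in WT tumours and for Tap2 at least 5.70-fold. No fold is given for these 2 genes in SCID tumours against the line, since most SCID tumours were below background too (1 of 5 above it for Nlrc5 and 2 of 5 for Tap2). With readings below background raised to it, the difference was 0.57 and not called for Nlrc5 (limma adjusted p = 0.0991) and 0.61 for Tap2 (limma adjusted p = 0.0439), against 1.40 and 2.19 as deposited.

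Psmb9 and Psmb10 were just above background in the line, at 31 and 43 counts for Psmb9 and 32 and 41 counts for Psmb10 against a level of 29.5. Psmb9 rose by 3.30 (SE 0.33) in WT and 1.27 (SE 0.32) in SCID tumours, with limma adjusted p of 5.66e-06 and 0.00598. Psmb10 rose by 3.04 (SE 0.30) and 1.63 (SE 0.29), with limma adjusted p of 4.87e-06 and 6.26e-04. Tapbp was well expressed in culture, at 7.35 and 7.26, and rose by 2.18 (SE 0.33, limma adjusted p = 1.41e-04) in WT tumours. In SCID tumours its rise of 0.82 (SE 0.32) was at the edge of the threshold (limma adjusted p = 0.0488). Psmb7 was highest in culture, at 10.57 and 10.59, above all 10 tumours, but its differences of -0.30 from each host were not called (limma adjusted p = 0.167 and 0.171).

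The order of levels was thus line, SCID tumours, WT tumours for 7 members, with no overlap between any 2 groups. Of all 750 genes, every SCID tumour lay below every WT tumour in 15.1% and above every line sample in 60.7%. Every WT tumour lay above every line sample in 72.7%, and the share of genes with the full order was not computed. For Nlrc5 and Tap2 the order of the line and the SCID tumours rests on readings mostly below background. The order of SCID tumours and the line depended on scaling: aligned on the median of all genes, Tapbp, Psmb9, Psmb10 and Nlrc5 were lower in SCID tumours than in the line (-1.18, -0.73, -0.37 and -0.60), and only Psmb8 remained called higher. Without line sample 1, the calls of Tapbp, Psmb9 and Nlrc5 in SCID tumours against the line were lost (limma adjusted p = 0.147, 0.0776 and 0.102), leaving 4 of 7. The call of Tapbp was also lost without line sample 2, without SCID tumour 1, 3, 4 or 5, without WT tumour 4 and without the averaged pair (limma adjusted p between 0.0605 and 0.189).

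Summed pan-leukocyte signal was lower in SCID tumours, except that SCID tumour 5 lay above WT tumours 2 and 3. Of 19 pan-leukocyte markers 7 were lower in SCID tumours, 0 higher and 12 not called. Their median change was -0.81, against -0.33 over all genes. Ptprc, which encodes CD45, fell by 1.00 (SE 0.25, limma adjusted p = 0.0236). The summed signal of the 19 markers was 2984 to 5070 in WT tumours, 1469 to 3238 in SCID tumours and 237 to 253 in the line. At background in the line were 17 of the 19, and in tumours all 19 were above it in at least 1 sample of each host. T cell markers were lower in 13 of 21 cases, with a median change of -0.83 and summed signals of 619 to 1000 in WT and 318 to 440 in SCID tumours. Their summed signal in the line was 257 to 289. Lower in SCID tumours were also 1 of 12 B cell, 2 of 14 NK cell, 1 of 13 macrophage and monocyte and 1 of 8 dendritic cell markers, where 15.7% of all genes were lower. Of the 9 endothelial and 7 fibroblast markers 0 were called by limma. Of the 5 epithelial tumour cell markers 1 was higher in SCID tumours, 0 lower and 4 not called, with a median change of -0.45. The 1 called was Cd9, which encodes a tetraspanin (0.54, SE 0.16, limma adjusted p = 0.0429), and it was the 1 gene of all 750 called higher. Cd8a, the co-receptor of the T cells that read class I molecules, exceeded background in 2 WT tumours of 5 and in 0 SCID tumours of 5.

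Aligning the tumours on the mean of the pan-leukocyte markers, an alternative chosen after seeing the data, gave the change of each member relative to these markers. Nlrc5 was then lower by -2.35 (SE 0.33, limma adjusted p = 0.00129), Tap1 by -2.06 (SE 0.34, limma adjusted p = 0.00382), Psmb8 by -2.02 (SE 0.30, limma adjusted p = 0.00199), Tap2 by -1.45 (SE 0.32, limma adjusted p = 0.0223) and Psmb9 by -1.26 (SE 0.25, limma adjusted p = 0.0121). With this alignment 2.67% of all genes were called lower and 8.53% higher. Psmb10 (-0.64, limma adjusted p = 0.116) and Tapbp (-0.59, limma adjusted p = 0.168) were not called, and Psmb7 was higher by 0.76 (SE 0.23, limma adjusted p = 0.0484). Thus all 7 members that fell as deposited had a negative change relative to the mean of these markers, and 5 of the 7 were called. The part of leukocyte content in the results was not tested.

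**Figure D3:**
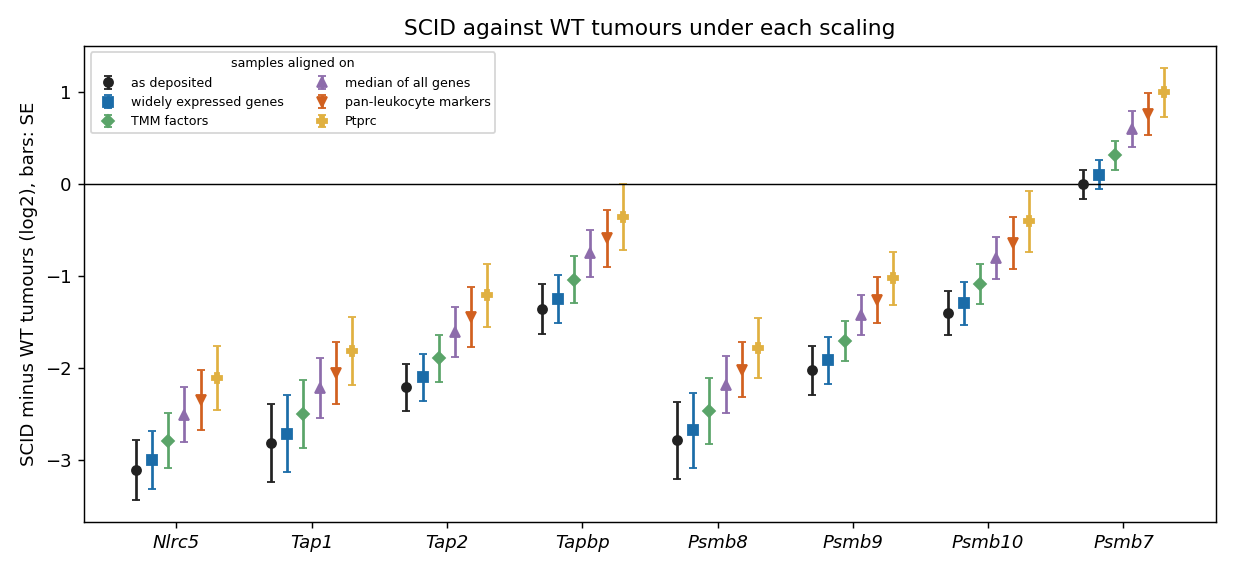
SCID minus WT tumours (log2, y axis, with SE bars) for each member with samples as deposited or aligned on widely expressed genes, TMM factors, the median of all genes, the pan-leukocyte markers or Ptprc. Nlrc5, Tap1, Tap2, Psmb8 and Psmb9 stay below 0 by at least 1.03 under all 6, Tapbp and Psmb10 reach -0.36 and -0.40 when aligned on Ptprc, and Psmb7 moves from -0.0025 to 1.00.

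Leukocyte signal and member levels kept the same order in some tumours and not in others. WT tumour 5 had the highest summed pan-leukocyte signal (5070) and the highest Nlrc5, Tap1, Tapbp, Psmb8, Psmb9 and Psmb10 of all tumours. Among SCID tumours, SCID tumour 1 had the lowest signal (1469) and the lowest Psmb8 (6.40), and SCID tumour 5 the highest of both. SCID tumour 5 had a summed pan-leukocyte signal of 3238, above those of WT tumours 2 and 3 (2984 and 3080). Its Psmb8 level was 8.27 against 9.92 and 10.07 in those tumours, and its Nlrc5 level 4.80 against 7.93 and 8.04. WT tumour 1 had more pan-leukocyte signal (3694) than WT tumours 2, 3 and 4, but the lowest Nlrc5, Tap1, Tap2, Tapbp, Psmb8 and Psmb10 of the WT tumours.

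Within a host the members did not all move together. WT tumour 5 was above the WT mean for all 8 members, by 1.32 for Tap1, 1.05 for Psmb8 and 0.74 for Psmb9, but by 0.10 for Tap2. WT tumour 1 was below it for 7 members and above it for Psmb7 (0.20). In SCID tumour 5, Psmb8 and Tap1 stood 0.92 and 0.73 above the SCID mean, while Tap2 was 0.31 below it. SCID tumour 3 had Nlrc5 0.89 below the SCID mean with Psmb8 within 0.023 of it. These Tap2 and Nlrc5 readings of SCID tumours were 17 and 14 counts, below the background level of 29.5. Only 2 of 5 SCID tumours for Tap2 and 1 of 5 for Nlrc5 were above that level.

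**Figure D4:**
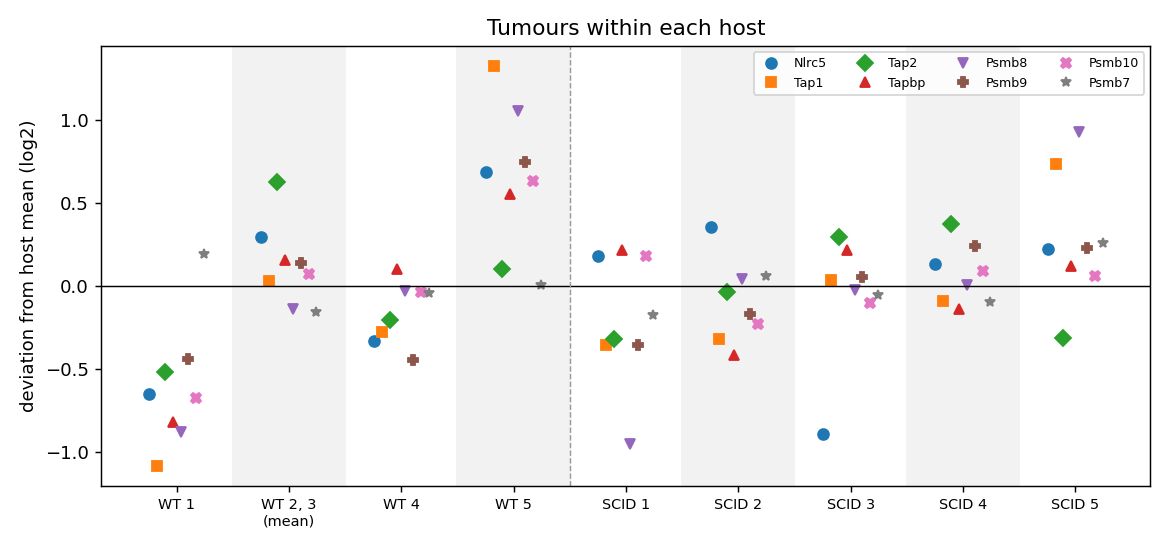
Deviation of each member from the mean of its host (log2, y axis) in the 4 WT samples (WT tumours 2 and 3 averaged) and 5 SCID tumours, left and right of the dashed line. Tap1 and Psmb8 rise above the host mean in WT tumour 5 (1.32 and 1.05) and SCID tumour 5 (0.73 and 0.92), and Nlrc5 drops in SCID tumour 3 (-0.89). That Nlrc5 reading, 14 counts, and most other SCID readings of Nlrc5 and Tap2 lie below background.

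Across the 9 tumours, deviations from the host means correlated with Pearson's r of 0.90 for Tap1 with Psmb8, 0.89 for Tap1 with Psmb9 and 0.90 for Tapbp with Psmb10. Tap2 correlated less with its neighbours Psmb8 (0.24) and Tap1 (0.31), and Psmb7 with Tap1 at 0.053. Nlrc5 correlated with Psmb10 at 0.68 and with Tap1 at 0.59. With the mean of the pan-leukocyte markers, r was 0.84 for Psmb8 and 0.65 for Tap1 but 0.11 for Tapbp and -0.086 for Tap2. These values describe 9 points that share each tumour's scaling factor and cell make-up. For Tap2 and Nlrc5 most SCID points were below background, with 2 of 5 and 1 of 5 tumours above it. Their r values therefore rest partly on low counts, and whether these genes vary apart from the others was not tested.

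The genes whose deviations were most like the mean of the 8 members, among 525 other genes above background on average, included Cxcl9 (r = 0.93), H2-K1 (0.93), H2-D1 (0.91) and Cxcl10 (0.90), over the same 9 tumours. Cxcl9 and Cxcl10 encode interferon-induced chemokines, and H2-K1 and H2-D1 class I heavy chains.

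Of 10 class I heavy chain and class I-like genes outside the member list, 4 were lower in SCID tumours, 0 higher and 6 without a call (median -0.34). For this list and the interferon lists below, the share over all 750 genes was 15.7% lower and 0.133% higher, with a median of -0.33. The classical genes H2-K1 and H2-D1 fell by 2.58 (SE 0.33, limma adjusted p = 0.00111) and 2.00 (SE 0.30, limma adjusted p = 0.0021), and H2-T23, a non-classical gene read by NK cells, by 1.17 (SE 0.23, limma adjusted p = 0.00782). H2-K1 was at 8.15 in the line and 7.95 ± 0.29 (SD, n = 5) in SCID tumours. The interferon-gamma signalling list had 6 of 16 genes lower, 0 higher and 10 without a call (median -0.75). Irf1, a transcription factor that interferon-gamma induces, fell by 1.07 (SE 0.26, limma adjusted p = 0.0194), and Ifng itself was at background in all 12 samples, at 12 to 25 counts. In the type I interferon response list 7 of 25 genes were lower, 0 higher and 18 without a call (median -0.66). Zbp1, a sensor of nucleic acids, had the largest change among them, a fall of 2.33.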

How the data were processed

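The authors deposited 2 tables of normalized NanoString nCounter values for 12 samples: log2 values of 750 genes, and linear signal of 749 of them. How they normalized (software, reference genes, background) is not given in the sources used here. Taking log2 of the deposited signal returns the log2 table (largest difference 5.4e-09). A sample-specific step of 0.694 to 1.35 units divides 100% of a sample's signal into whole numbers (tolerance 0.02 counts), which were taken as probe counts. Columns of other samples numbered 0.

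Background was the 95th percentile (29.5) of the counts of 33 T and B cell genes in the line. Groups were compared with limma 3.58.1 (lmFit, eBayes, two-sided, R 4.3.3): the tumours alone for SCID against WT, and 1 fit over all groups against the line. Benjamini-Hochberg adjustment covered all genes of a fit, and 0.05 was the threshold. "At least" folds divide the brighter mean by the background level. The fits were tested on simulated data. Replicate numbers do not pair the tumours (correlations of same-numbered deviations -0.41 to 0.24).

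The members and lists were chosen with earlier results of these data known. Named genes were the 8 members, the 5 most alike within hosts, up to 3 per list by size of change and a few fixed genes. B2m, one of these, is not analysed here, and 1 other gene is not reported here.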

Additional observations from a re-analysis of the deposited data

Results flagged for a closer look

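Of 16 groups of values (8 members in 2 hosts), 1 held a sample far from the others. Nlrc5 in SCID tumour 3 was at 3.69, or 14 counts, against 4.71 to 4.93 in the other SCID tumours, and its gap to the nearest of them took up 0.82 of the range of the group. All of these but 1 reading were below the background level. By chance about 1 group in 20 would pass the cut-off for this flag, and the chance of a gap as large as 0.82 was not computed. Without SCID tumour 3 the difference of Nlrc5 between the hosts was -2.89.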

How the results depend on the processing

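The 7 members lower in SCID than in WT tumours stayed 7 without any 1 tumour (7 to 7) and with a replicate block (7), and the 7 higher in WT tumours than in the line stayed 7 (7 to 7). The replicate numbers do not pair the samples, and with the block 6 members were higher in SCID tumours than in the line. An exact permutation test per gene, two-sided, called 0 members and 0 genes lower or higher after adjustment over all genes, since its smallest p is 0.0079 (7 members were at it) and 215 genes had an unadjusted p under 0.05. For SCID against WT tumours, 37 genes were called lower on the median of all genes, 56 with TMM factors, 76 with values raised to background, 20 on pan-leukocyte markers and 15 on Ptprc, against 118, and 67 to 156 without 1 tumour. Genes called higher numbered 49 on the median, 8 with TMM factors, 64 on pan-leukocyte markers and 277 on Ptprc, against 1. They numbered 2 with both WT tumours 2 and 3 kept, on widely expressed genes or in 1 fit over all groups. With the title number as a random block or the title number series as a fixed block they also numbered 2. They numbered 3 within the larger series of title numbers, 0 without tumour 5 of both hosts, and 0 to 3 without 1 tumour. For WT tumours against the line, 483 genes were lower and 106 higher on the median, 148 and 249 with TMM factors, and 36 lower on widely expressed genes, against 20 and 503 (12 to 23 and 407 to 513 without 1 sample). For SCID tumours against the line, 481 were lower and 101 higher on the median and 119 and 212 with TMM factors, against 21 and 387 (10 to 22 and 273 to 401 without 1 sample). Members higher in SCID tumours than in the line numbered 1 on the median and 4 with TMM factors, against 7 (4 to 7 without 1 sample), and members lower relative to Psmb7 6 to 7. On the median, directions turned for Tapbp in WT tumours against the line (-0.43) and, in SCID tumours against the line, for Tapbp (-1.18), Psmb9 (-0.73), Psmb10 (-0.37) and Nlrc5 (-0.60). Psmb7 in SCID against WT tumours turned to 0.029 with both tumours kept, the replicate block or the title number series as block, 0.030 with the random block, 0.60 on the median, 0.10 on widely expressed genes, 0.32 with TMM factors, 0.76 on pan-leukocyte markers and 1.00 on Ptprc, and ranged from -0.068 to 0.063 without 1 tumour. The cause of these changes was not tested. The alignments on pan-leukocyte markers and Ptprc, and leaving out tumour 5 of both hosts, were chosen after seeing the data. The planned edgeR and DESeq2 fits were not run. Low counts limit Nlrc5 and Tap2 in SCID tumours and 4 members in the line.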
